A study of Homo sapiens with 6 samples.

Results

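The genes described here are the G1 cyclins and their kinases, a list of 9 genes fixed by symbol among the 57905 genes of the deposited count table. They are the D-type cyclin genes CCND1, CCND2 and CCND3, the E-type cyclin genes CCNE1 and CCNE2, the kinase genes CDK2, CDK4 and CDK6, and CDC25A, which encodes a phosphatase that activates these kinases. NALM6 is an established human leukemia line of the B cell precursor kind, and its RNA was sequenced after 24 h with the solvent DMSO (3 libraries) or with 500 nM of THZ1, a covalent CDK7 inhibitor (3 libraries). All groups are the same cell line without any genetic change named in the labels. The labels do not say whether the libraries of a treatment came from separate cultures, so the p-values measure only the spread between these libraries. Of the 9 genes, 8 passed the filter on low counts and CCND1 did not.

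D-type cyclins bind CDK4 or CDK6 in early G1 and start the phosphorylation of the retinoblastoma protein, and E-type cyclins bind CDK2 later and complete it, which frees E2F factors and lets cells enter S phase. CDC25A removes inhibitory phosphates from CDK2, and CDK7, with cyclin H and MAT1, places the activating phosphate on these kinases besides its role at RNA polymerase II. In B cell precursors, cyclin D3 with CDK4 and CDK6 is the D-type complex best known for driving the expansion of pre-B cells.

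The stretches of DNA before transcription starts are shown for genes whose share of the RNA fell most or stayed near its level. This lets the letters be read beside the values. RefSeq windows were given for 5 of the 9 genes (CCND3, CCNE1, CDC25A, CDK4 and CDK6), while CCND1, CCND2, CCNE2 and CDK2 had none. Each window was placed on GRCh37 by an exact match, and the windows below end at the start of the canonical transcript or, for CDK4, 138 bases before that start, where exons of other annotated CDK4 transcripts begin. The CCND3 and CDK4 windows lie inside the span of longer annotated transcripts of the same gene, and those of CCNE1 and CDC25A lie outside the gene. Capitals mark matches, on either strand, to the E-box CACGTG, to the E2F-like motif TTTNNCGC, to the GC box GGGCGG or to CCAAT.
CCND3, GRCh37 chr6:41909547-41909796, minus strand: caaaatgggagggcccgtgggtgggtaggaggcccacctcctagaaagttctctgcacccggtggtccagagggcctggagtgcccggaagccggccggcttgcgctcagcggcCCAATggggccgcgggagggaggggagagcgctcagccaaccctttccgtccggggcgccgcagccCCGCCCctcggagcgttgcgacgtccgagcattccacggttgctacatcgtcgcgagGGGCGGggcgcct
CDK4, GRCh37 chr12:58146231-58146343, minus strand: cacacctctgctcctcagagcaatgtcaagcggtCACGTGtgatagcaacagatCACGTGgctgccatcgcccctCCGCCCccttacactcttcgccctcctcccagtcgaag
CCNE1, GRCh37 chr19:30302648-30302897, plus strand: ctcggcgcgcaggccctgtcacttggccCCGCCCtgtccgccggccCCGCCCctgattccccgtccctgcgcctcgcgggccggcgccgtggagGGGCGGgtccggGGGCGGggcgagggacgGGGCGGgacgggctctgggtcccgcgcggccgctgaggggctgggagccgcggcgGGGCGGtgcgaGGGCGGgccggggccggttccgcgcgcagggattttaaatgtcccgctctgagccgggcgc
CDC25A, GRCh37 chr3:48229908-48230157, minus strand: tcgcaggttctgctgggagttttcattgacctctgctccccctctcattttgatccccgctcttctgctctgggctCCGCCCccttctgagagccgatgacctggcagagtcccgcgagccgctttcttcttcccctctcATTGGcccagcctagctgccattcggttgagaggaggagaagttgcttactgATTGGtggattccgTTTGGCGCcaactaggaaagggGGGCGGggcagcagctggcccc
In the full 250 bases before its start, CDK4 held 3 E-boxes, starting 216, 196 and 101 bases before it, and none of the other 4 genes had this motif in its canonical window. CDC25A held the E2F-like motif once, 44 bases before its start, and none of the other 4 genes did. Over all 35116 RefSeq windows of this length, 6.34% held the E-box and 5.92% the E2F-like motif, whereas GC boxes were found in 42.6% and CCAAT in 32.0%. CCNE1 held 7 GC boxes, CDK4 and CDK6 held 3 each, and CCND3 and CDC25A held 2 each. These matches describe the letters in the windows and were not tied to any measured binding.

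RNA-seq gave 11015480 to 11164840 counts in the DMSO-treated and 7876402 to 8314306 in the THZ1-treated libraries. Of the 9 B cell precursor markers, all were tested, 7 were lower and 1, CD79A, higher with THZ1. Among all genes tested, 41.1% were lower and 43.5% higher. The 6 T cell markers summed to 0.0820 to 0.338 CPM (library-size-scaled counts with TMM factors) with DMSO and 0.920 to 1.52 CPM with THZ1, none of them passed the filter, and CD8A had 0 counts throughout. The 6 myeloid markers summed to 3.97 to 4.67 CPM and 18.5 to 20.1 CPM, with 2 of 4 tested higher (CD14 and CSF1R) and 1 lower (LYZ), while MPO, not called, had 1.08 and 1.20 CPM. The treatments overlapped for LYZ, and its call was lost with RLE factors, upper quartile factors, DESeq2 and a replicate block. It was also lost by glmTreat, an edgeR test against a minimum change, and without DMSO replicate 1 or 2 or THZ1 replicate 1 or 2. The part of these markers in the results was not tested. In bulk RNA, fewer cells in a phase of the cycle and less RNA per cell cannot be told apart. All levels here are relative to the other RNA of the same library, without a measure of RNA per cell. Whether amounts per cell fell, rose or stayed was not tested.

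Of the 8 genes tested, 6 were lower and 1, CCND2, was higher with THZ1, and CCNE1 was not called (edgeR's quasi-likelihood test, Benjamini-Hochberg adjusted p below 0.05). Over all 16622 genes tested, 84.5% were called, 41.1% lower and 43.5% higher, so that being called was common and the direction and size carry the description. When a log2 difference of 1.5 or more in either direction was also required, CCND3, CCNE2, CDK4 and CDK6 were lower and CCND2 was higher, while 12.9% of all genes were lower and 24.6% higher by this rule. CDK4 and CDK6 lay close to this limit. With RLE factors, upper quartile factors, DESeq2 or a minimum of 10 counts per library, only CCND3 and CCNE2 of the lower genes were past it. Under RLE, CDK4 was at −1.49 and CDK6 at −1.46. CCND2 stayed past it in the other direction in these settings. The median log2 fold change of the 8 genes was −1.38, against 0.03 for all genes tested. The libraries of the treatments did not overlap for 7 of the 8 genes, as for 84.7% of all genes tested. With upper quartile factors all log2 fold changes moved by a median of 0.19, and with library sizes alone by −0.25, relative to TMM.

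**Figure D1:**
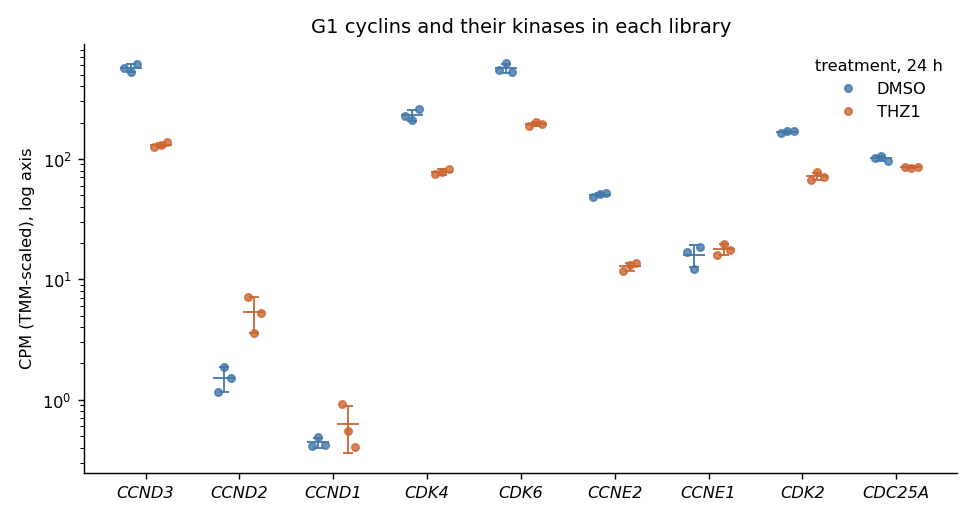
Levels of the 9 genes in each library, in TMM-scaled CPM on a log axis, with DMSO in blue and THZ1 in orange; points are libraries, bars the mean and SD of 3 libraries. CCND3, CDK4, CDK6, CCNE2 and CDK2 sit lower in every THZ1-treated library, and CCNE1 overlaps between treatments.

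Cyclin D3 carried nearly all D-type cyclin transcripts of these cells and fell the most of the 8 genes. CCND3 (ENSG00000112576) lies on chromosome 6 from 41902672 to 42018095 in GRCh37. It had 568, 529.6 and 617 CPM in the DMSO-treated and 126, 130.3 and 137 CPM in the THZ1-treated libraries. All THZ1-treated libraries were far lower than all DMSO-treated libraries. CCND3 was 4.36-fold lower (edgeR log2 fold change −2.12 ± 0.07 SE, adjusted p = 3.5e-22), and 5.66% of all genes tested had a lower value. Leaving out each library in turn kept the log2 fold change of CCND3 between −2.20 and −2.09. The difference in fall between CCND3 and CCNE2 was not tested, and their 95% intervals overlapped (−2.27 to −1.97 and −2.20 to −1.76).

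Cyclins D1 and D2, the other D-type cyclins, were scarce. CCND2 (ENSG00000118971, chromosome 12 from 4378937 to 4414519) had 14, 23 and 18 counts with DMSO and 54, 26 and 39 counts with THZ1. These counts correspond to 1.16, 1.89 and 1.52 CPM and to 7.10, 3.60 and 5.21 CPM, so the treatments did not overlap but the THZ1-treated libraries varied widely. In the counts CCND2 rose 3.48-fold relative to the other RNA, from a low level (edgeR log2 fold change 1.80 ± 0.29 SE, adjusted p = 1.6e-06). The second deposited table, read as FPKM values scaled for transcript length, did not show it. Its libraries of a treatment have nearly equal values once sorted by size, from a step that the sources used here do not state, so its values may not be plain FPKM. There CCND2 had 1.05, 1.29 and 1.28 FPKM with DMSO and 1.59, 0.522 and 1.04 FPKM with THZ1, the treatments overlapped, and the log2 fold change was −0.14 (adjusted p = 0.547 by limma). In the annotation, the protein-coding gene ENSG00000285901 shares 999 exon bases with CCND2 on the same strand, but it was not among the genes counted. CCND2-AS1, with at most 2 counts in any library, shares 162 on the opposite strand. CCND1 (ENSG00000110092, chromosome 11 from 69455924 to 69469242) had 5, 6 and 5 counts with DMSO and 7, 4 and 3 counts with THZ1, at most 0.920 CPM in any library. Summed over 3 libraries this gave 16 counts (exact Poisson 95% interval 9.15 to 26.0, counting error only) and 14 counts (7.65 to 23.5), and a change was not detectable at this depth. LTO1 overlaps CCND1 on the opposite strand, shares 497 exon bases with it and had 146 to 364 counts.

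The D-type cyclins were therefore compared as shares within each library, which do not move with the scaling between libraries. Per kilobase of merged exons, CCND3 made up 99.8%, 99.6% and 99.7% of D-type cyclin transcripts with DMSO and 95.3%, 97.6% and 97.0% with THZ1. The mean share was 99.7% ± 0.0707 and 96.6% ± 1.18 (SD, n = 3 libraries each), a difference of −3.10 percentage points, with no overlap (exact permutation p = 0.1, two-sided, the lowest value that 3 libraries against 3 allow). With the longest annotated transcript as the length, the difference was −1.53 percentage points. CCND2 took 0.147% to 0.256% of these transcripts with DMSO and 1.94% to 3.87% with THZ1. Cyclin D3 thus remained the main D-type transcript in every library, at a lower level.

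The partners of the D-type cyclins, CDK4 and CDK6, fell by similar amounts. CDK4 (ENSG00000135446, chromosome 12 from 58141510 to 58149796) had 225, 209 and 257 CPM with DMSO and 74.6, 77.2 and 82.4 CPM with THZ1. CDK4 was 2.95-fold lower (edgeR log2 fold change −1.56 ± 0.08 SE, adjusted p = 8.1e-18). CDK6 (ENSG00000105810, chromosome 7 from 92234235 to 92465887) had 549, 619 and 525 CPM with DMSO and 189, 201 and 195 CPM with THZ1. CDK6 was 2.89-fold lower (edgeR log2 fold change −1.53 ± 0.07 SE, adjusted p = 9.2e-19). For both kinases the highest THZ1-treated library lay far under the lowest DMSO-treated library.

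CDK6 made up 38.1%, 42.8% and 34.0% of the CDK4 and CDK6 transcripts per kilobase with DMSO and 39.0%, 39.7% and 37.5% with THZ1. The mean share was 38.3% ± 4.40 and 38.7% ± 1.13 (SD, n = 3 each), and the difference of 0.416 percentage points was smaller than the spread between libraries (exact permutation p = 0.9, two-sided). Leaving out each library in turn moved this difference between −1.74 and 2.66 percentage points, so its sign was not fixed by these data. TSPAN31 shares 1369 exon bases with CDK4 on the opposite strand and had 913 to 1479 counts, against 558 to 3051 for CDK4. Of the CDK4 E-boxes, the 2 farther from the start are in the stretch shown above, and the CDK6 window had none.

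**Figure D2:**
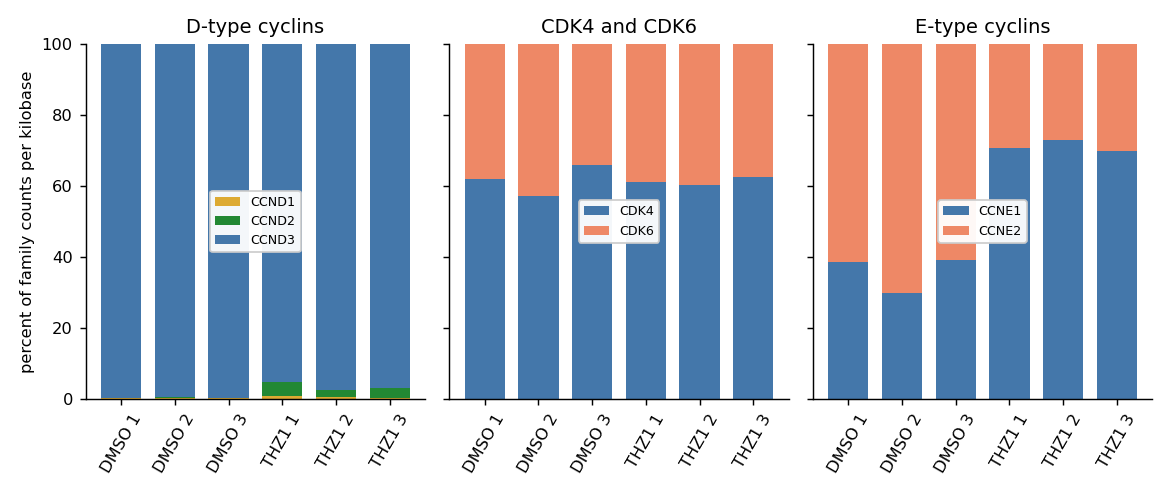
Share of each family's counts per kilobase of merged exons, in percent, for every library; stacked colours are the genes of the family. CCND3 fills 95.3% or more of the D-type bars, the CDK4 and CDK6 bars look alike in both treatments, and CCNE1 takes 29.8% to 39.2% with DMSO and 69.8% to 73.0% with THZ1.

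Of the E-type cyclins, which activate CDK2, CCNE2 fell and CCNE1 was not called. CCNE2 (ENSG00000175305, chromosome 8 from 95891998 to 95908906) had 48.4, 51.3 and 51.6 CPM with DMSO and 11.7, 13.0 and 13.6 CPM with THZ1. CCNE2 was 3.95-fold lower (edgeR log2 fold change −1.98 ± 0.11 SE, adjusted p = 6.0e-17), with no overlap between treatments. CCNE1 (ENSG00000105173, chromosome 19 from 30302898 to 30315219) had 16.9, 12.2 and 18.65 CPM with DMSO and 15.8, 19.7 and 17.6 CPM with THZ1. The treatments overlapped, and the log2 fold change of CCNE1 was 0.15 with a 95% interval of −0.15 to 0.45 (adjusted p = 0.335 by edgeR). With upper quartile factors CCNE1 was called higher (log2 fold change 0.34, adjusted p = 0.0298 by edgeR), and without DMSO replicate 2, its lowest library, the value was −0.03.

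Within the libraries, CCNE1 made up 38.5%, 29.8% and 39.2% of E-type cyclin transcripts per kilobase with DMSO and 70.7%, 73.0% and 69.8% with THZ1. CCNE2 was the more abundant E-type transcript in all 3 DMSO-treated libraries, and CCNE1 in all 3 THZ1-treated libraries. The mean share of CCNE1 was 35.8% ± 5.21 with DMSO and 71.2% ± 1.63 with THZ1 (SD, n = 3 each), a difference of 35.3 percentage points, with no overlap (exact permutation p = 0.1, two-sided, again the lowest possible). Counts alone, without lengths, gave 23.9% and 58.0%. INTS8 shares 1629 exon bases with CCNE2 on the opposite strand and had 899 to 1018 counts with DMSO and 224 to 262 with THZ1. Whether reads over exon bases shared between genes were assigned or left uncounted is not stated. The effect on the levels and shares per kilobase, here and for CDK4 with TSPAN31, was not tested.

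CDK2, the partner of cyclin E, fell as well. CDK2 (ENSG00000123374, chromosome 12 from 56360565 to 56366573) had 164, 170.5 and 169.5 CPM with DMSO and 67.3, 77.2 and 71.1 CPM with THZ1. All THZ1-treated libraries lay below all DMSO-treated libraries, and CDK2 was 2.34-fold lower (edgeR log2 fold change −1.23 ± 0.08 SE, adjusted p = 7.8e-16). The difference in fall between CDK2 and the other kinases was not tested, and the 95% intervals were −1.38 to −1.07 for CDK2, −1.73 to −1.40 for CDK4 and −1.68 to −1.39 for CDK6. The non-coding gene ENSG00000258554 shares 565 exon bases with CDK2 on the opposite strand and had 163 to 524 counts.

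CDC25A, whose product activates CDK2, changed little relative to the other RNA. CDC25A (ENSG00000164045, chromosome 3 from 48198636 to 48229907) had 102, 106 and 96.5 CPM with DMSO and 85.9, 84.2 and 86.2 CPM with THZ1. The treatments did not overlap, and edgeR called CDC25A lower (log2 fold change −0.25 ± 0.08 SE, adjusted p = 0.00342). This size is close to the shift that scaling alone makes: with upper quartile factors the log2 fold change of CDC25A was −0.05 (adjusted p = 0.520 by edgeR), and with library sizes alone it was −0.49. Against a minimum change of 0.5 on the log2 scale (edgeR's glmTreat) CDC25A and CCNE1 were not called, while the other 6 tested genes kept their calls. By the same test 5073 of all 16622 genes were lower and 5885 higher, so that such calls were common.

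**Figure D3:**
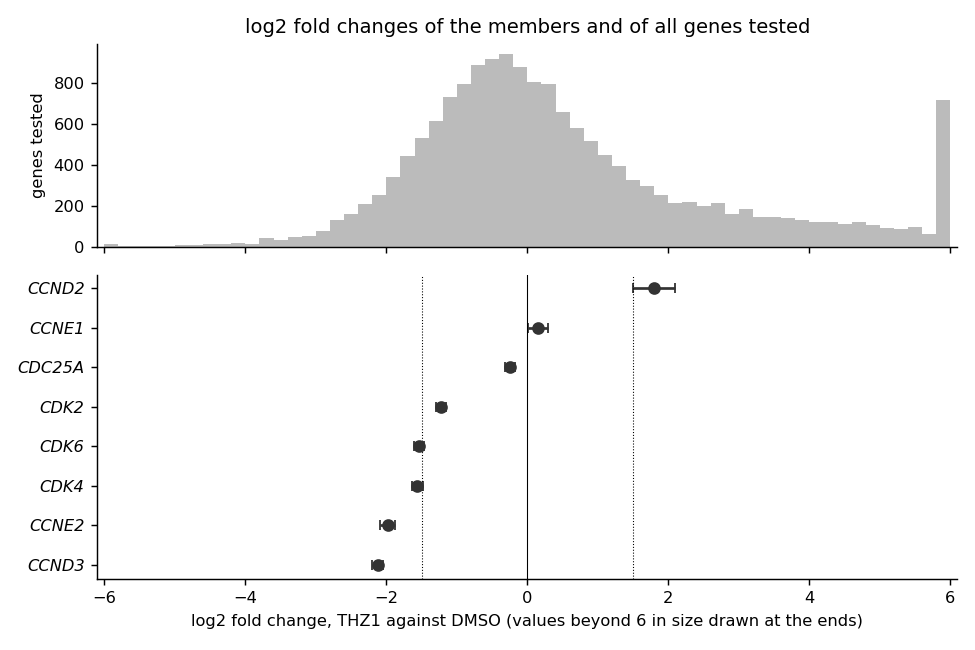
Upper panel, number of genes tested by log2 fold change of THZ1 against DMSO (bins of 0.2, values beyond 6 in size drawn at the ends). Lower panel, the 8 tested genes with standard errors; dotted lines mark −1.5 and 1.5, and CCND3, CCNE2, CDK4 and CDK6 lie below −1.5.

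Levels per kilobase of merged exons put the genes in another order after treatment. On the scale of CPM per kilobase of merged exons, CCND3 led with DMSO (99.2 ± 7.56, SD, n = 3), followed by CDK4 (74.5 ± 7.98), CDK6 (46.1 ± 3.99), CDK2 (43.2 ± 0.884), CDC25A (24.4 ± 1.09), CCNE2 (11.5 ± 0.399), CCNE1 (6.48 ± 1.36), CCND2 (0.190 ± 0.0455) and CCND1 (0.0929 ± 0.00903). Of these neighbours, the libraries of CDK6 and CDK2 overlapped. With THZ1 the order was CDK4 (25.2 ± 1.28), CCND3 (22.8 ± 0.957), CDC25A (20.6 ± 0.266), CDK2 (18.5 ± 1.29), CDK6 (15.9 ± 0.503), CCNE1 (7.19 ± 0.788), CCNE2 (2.91 ± 0.224), CCND2 (0.664 ± 0.219) and CCND1 (0.131 ± 0.0561), and no neighbours overlapped. The levels of the first 5 genes thus spanned a narrower range with THZ1 than with DMSO. The order rests on the merged exon lengths, which were 12239 bases for CDK6 and 5761 for CCND3. Their longest annotated transcripts have 11663 and 2394 bases, so another length could change the order, also which gene leads with THZ1. Other lengths were not tried for the order.

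Genes with patterns most like those of 3 members were sought among 9981 or 9982 genes with a symbol and a mean of at least 10 CPM, by the root mean square difference of centred log2 CPM over the 6 libraries. For CCND3 they were RRM1-AS1 (0.0382), PDHB (0.0383), a subunit of pyruvate dehydrogenase, and MCM3 (0.0464), a subunit of the replicative helicase. For CCND2 they were YPEL2 (0.188), ZNF850 (0.222) and MMP25 (0.235), at greater distances. CCND2 itself lay below the limit of 10 CPM, so genes at its level were not among the candidates. The part of counting noise in its distances was not tested. For CDC25A they were DHX29 (0.0132), YME1L1 (0.0149) and MAPRE1 (0.0155). With 2 treatments, such likeness is mostly a likeness in fold change.

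The genes that act with the G1 cyclins were counted in 8 further lists of 66 genes, set beside the 41.1% of all genes that were lower and the 43.5% that were higher. Among the inhibitors of these kinases, 4 of 5 tested were higher and none lower, with a median log2 fold change of 2.04. CDKN1A, which encodes p21 and binds the CDK2 complexes, had the highest value of the list, 3.14, and CDKN2C, an inhibitor of CDK4 and CDK6, the lowest, 0.07 (adjusted p = 0.393 by edgeR). The call of CDKN2C turned on the scaling and filter: it was higher with upper quartile factors (0.27, adjusted p = 0.00323 by edgeR) and with a minimum of 10 counts per library (0.21, adjusted p = 0.0208), and lower with library sizes alone (−0.17, adjusted p = 0.048). CDKN2A and CDKN2B had 0 counts in all 6 libraries, which allows up to 0.253 CPM with DMSO and 0.415 CPM with THZ1.

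The retinoblastoma family, a target of the cyclin D and cyclin E kinases, was listed together with the E2F factors. Of these 13 genes, 11 were lower and 1 higher, with a median of −0.52. E2F1 had the lowest log2 fold change, −2.83, and E2F2 the highest, 0.64. With upper quartile factors 8 of this list were lower, with a median of −0.32, and 8 were lower with a minimum of 10 counts per library and 6 by glmTreat. The CDK-activating kinase genes were all lower, CCNH with −0.97, MNAT1 with −0.93 and CDK7 with −0.34 (adjusted p = 0.00812 by edgeR), but the call of CDK7 was lost with upper quartile factors (adjusted p = 0.236), with DESeq2 (0.0681), with a minimum of 10 counts per library (0.0987) and by glmTreat (0.842). The checkpoint kinases that lead to CDC25A degradation were all lower as well, with log2 fold changes of −1.13 for CHEK2, −0.91 for ATR, −0.88 for ATM and −0.79 for CHEK1.

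Of 15 genes for cyclin and CDC25A turnover, 7 were lower, 5 higher and 3 not called. USP28, which encodes a deubiquitinase that opposes FBXW7, was lowest at −1.96, and GSK3B, whose kinase marks cyclin D1 for degradation, highest at 1.21. The median of this list, −0.17, turned to 0.03 with upper quartile factors, and 10 were lower and 3 higher with library sizes alone. Of the 9 tested genes of the S, G2 and M cyclins, CDK1 and its regulators, 6 were lower and 3 higher, from PKMYT1 at −1.36 to CDC25C at 1.07, with a median of −0.29. With upper quartile factors 4 of them were lower and 3 higher, with a median of −0.10, and with library sizes alone 6 were lower and 1 higher, with a median of −0.54. Of the chaperones of CDK4 and CDK6, HSP90AA1 (−1.37) and CDC37 (−0.27) were lower, and HSP90AB1 was not called (0.09, adjusted p = 0.223 by edgeR). The call of CDC37 was lost with upper quartile factors (adjusted p = 0.336 by edgeR), with a minimum of 10 counts per library (0.0866) and by glmTreat, and HSP90AB1 was lower with library sizes alone (−0.16) and higher with RLE factors (0.16), DESeq2 (0.16), upper quartile factors (0.28) and a minimum of 10 counts per library (0.22). Of 9 other tested cyclins and kinases, 5 were lower and 2 higher, from CDK18 at −2.65 to CCNG2 at 1.29, with a median of −0.79.

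**Figure D4:**
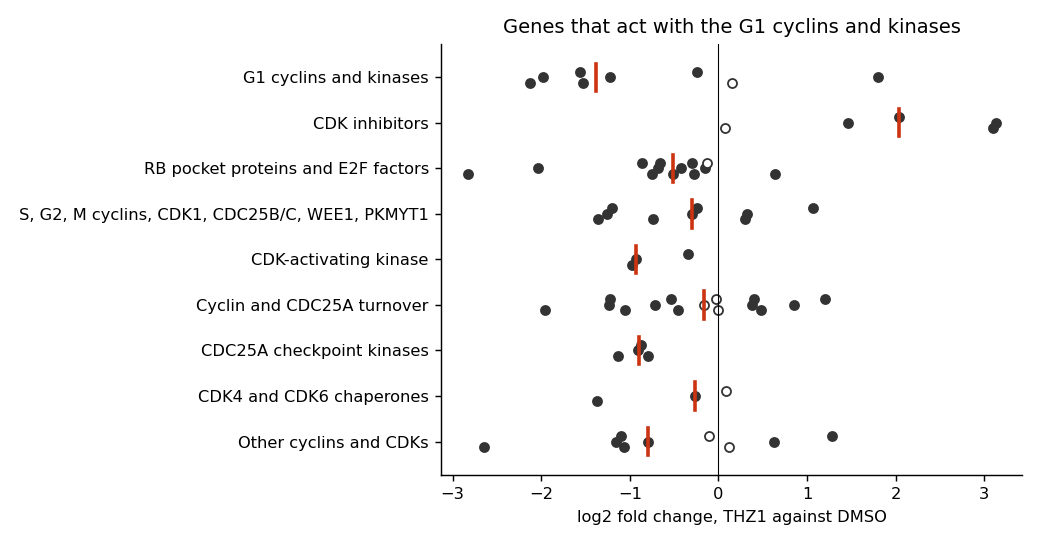
Log2 fold change of every tested gene in the member list and the 8 further lists; filled points passed an adjusted p of 0.05, open points did not, and red bars are medians. The inhibitors lie to the right with a median of 2.04, and the G1 cyclins and kinases to the left with a median of −1.38.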

How the data were processed

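NALM6 libraries, 3 with DMSO and 3 with THZ1, were grouped by the labels. The authors filtered the reads, mapped them to GRCh37 with STAR and deposited raw counts per gene from htseq-count, with neither annotation nor strand setting named in the sources used here. A second deposited table holds FPKM by RSEM on a log2 scale, read as log2(FPKM + 1), with nearly equal sorted values within a treatment from a step not stated, for 16730 genes. It lists 7 of the 9 genes by symbol. CCND1 and CCNE2 were matched by Ensembl identifier through GENCODE 44 on GRCh37, which also gave symbols, coordinates and exon lengths. Columns with the authors' own p-value, fold change and FDR were not used.

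Counts were filtered with filterByExpr (minimum count 10, total 15), scaled by TMM and tested with edgeR's quasi-likelihood test, Benjamini-Hochberg adjusted over 16622 genes. The standard error came from the F statistic. Shares within a library were compared by exact permutation. Tests are two-sided. Depth was 7876402 to 11164840 counts per library, where 3 counts are 0.246 to 0.415 CPM, a floor that covers counting error only. Replicates differed by more than counting noise (chi-square per gene 1.81 to 9.35). The members and lists were chosen with earlier results of these data known. Named were the 9 members, the highest and lowest gene of each further list, all genes of lists of 3 or 4, genes overlapping a member, and the 3 most alike genes for CCND3, CCND2 and CDC25A. The markers, the CDK inhibitor sums and the settings named were chosen after their values were seen. The values of 1 marker are not reported here.

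The calls were repeated with DESeq2, with other scaling (RLE, upper quartile, none beyond library size), other filters, a replicate block, glmTreat, each library left out, other lengths, and limma on FPKM with a pseudocount of 1 or 0.1. Testing the genes of the FPKM table alone was a later addition, chosen after seeing the data. Simulated counts with known changes were used to test the scripts. R 4.3.3, edgeR 4.0.16, limma 3.58.1, DESeq2 1.42.0, scipy 1.17.1 and Python 3.11.15 were used.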

Additional observations from a re-analysis of the deposited data

How the results depend on the processing

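CCND3, CCNE2, CDK2, CDK4 and CDK6 stayed lower past the threshold in every alternative that tested them, with log2 fold changes of −2.37 to −1.93, −2.23 to −1.79, −1.47 to −1.03, −1.81 to −1.37 and −1.78 to −1.34. The number of these genes lower by at least 1.5 on the log2 scale was 4, and 2 with RLE factors, upper quartile factors, DESeq2 or at least 10 counts in every library, and 3 or 4 with each library left out. The number of members called higher was 1, 2 with upper quartile factors (CCND2 and CCNE1) and 0 in the FPKM values at any fold and at 1.5. There CCND2 turned to −0.14 with a pseudocount of 1, with or without a minimum mean of 1 FPKM, and −0.29 with 0.1. The cause was not tested. CCNE1 turned to −0.10 with library sizes alone and lay between −0.032 and 0.26 with each library left out. CDC25A was not called with upper quartile factors, with at least 10 counts in every library (−0.11, adjusted p = 0.156 by edgeR) or by glmTreat. The CCND3 share differed by −1.53 percentage points with the longest transcript as length, and from −3.57 to −2.44 with each library left out. The CDK6 share differed by −1.74 to 2.66 percentage points with each library left out, turning negative without DMSO replicate 3 or THZ1 replicate 2. The deposited FPKM values could not give the D-type and E-type shares, since they list neither CCND1 nor CCNE2. CDKN2C was called higher with upper quartile factors (0.27) and with a minimum of 10 counts per library (0.21), turned to −0.17 with library sizes alone (called lower), −0.012 with no filter and, in the FPKM values, −0.057 (pseudocount 1, with or without the minimum) and −0.058 (pseudocount 0.1), and lay between −0.0052 and 0.11 with each library left out. HSP90AB1 turned to −0.16 with library sizes alone and −0.54 in the FPKM values.

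Deviations of same-numbered libraries correlated at −0.004, 0.000969 and 0.0206, and those of differently numbered libraries at −0.0178 to 0.017. With so few libraries these values cannot decide whether same-numbered libraries shared a culture or day. With a replicate block 6 members were lower and 1 higher, as without it, and 6786 of all genes were lower and 7181 higher. The depth limits CCND1 and CCND2: without a filter, edgeR gave CCND1 0.41 on the log2 scale (adjusted p = 0.593).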

Other observations

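Sums over families, chosen after the values were seen, were compared per kilobase of merged exons within each library. The inhibitor transcripts CDKN1A, CDKN1B and CDKN1C together amounted to 0.294, 0.285 and 0.289 times those of CDK2, CDK4 and CDK6 with DMSO and to 6.90, 6.18 and 6.12 times with THZ1. The mean ratio was 0.289 ± 0.00481 and 6.40 ± 0.431 (SD, n = 3 each), 22.1 times as high. The INK4 inhibitors, CDKN2C and CDKN2D being the 2 with counts, were 10.1 times as high against CDK4 and CDK6, at 0.295 ± 0.0230 with DMSO and 2.97 ± 0.132 with THZ1. D-type cyclins against CDK4 and CDK6 were at 0.824 ± 0.0376 with DMSO and 0.572 ± 0.0111 with THZ1, and E-type cyclins against CDK2 at 0.415 ± 0.0328 and 0.545 ± 0.0194. The sizes of these ratios rest on the merged exon lengths, and other lengths were not tried for them. The longest annotated transcript of CCND3 has 2394 bases against 5761 merged, and that of CDK4 1865 against 3094. For each of the 4 ratios the treatments did not overlap, as for 84.7% of all single genes tested. The exact permutation p was 0.1 for each (two-sided, the lowest value that 3 libraries against 3 allow). This adds no support, because the ratios were picked with these values known.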
